A study of Mus musculus with 2 samples.

Results

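Kinesins are motor proteins that walk along microtubules by hydrolysing ATP. Transport kinesins carry vesicles, organelles and RNA towards the plus ends of microtubules, which in neurons mostly means along the axon and into dendrites, and kinesin light chains link the kinesin-1 heavy chains to cargo. Mitotic kinesins build the spindle, move chromosomes and complete cytokinesis, so a dividing neural progenitor needs them, whereas a neuron relies on the transport motors. UPF1 is an RNA helicase that binds messenger RNA and is central to nonsense-mediated decay, the pathway that removes transcripts whose translation ends too early.

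The genes described here are the protein-coding loci of the RefSeq GRCm38.p6 annotation whose symbol begins with Kif or Klc followed by a digit, 42 of 21900 protein-coding loci. By textbook role, 12 were classed as mitotic, 13 as transport motors, 4 as light chains and 13 as other kinesins (cilia, microtubule ends or little studied). UPF1 binding was measured by enhanced crosslinking and immunoprecipitation (eCLIP) in cultured neural progenitor cells from mouse cortex. There was 1 UPF1 immunoprecipitate and 1 input library. Both came from cells of genotype Upf2fl/fl, in which the gene of another decay factor, Upf2, carries loxP sites, and both are labelled MOCK, a word that the labels leave unexplained; they state neither the age of the animals nor whether a recombinase was present. With 1 library of each kind, no value below has a replicate error and no p-value was computed between genes.

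The deposited list holds stretches of RNA with piled-up immunoprecipitate reads, called clusters, each carrying its log2 fold (immunoprecipitate over input) with the matching −log10 p. A cluster is called enriched here where the log2 fold reaches 3 or more and the −log10 p also reaches 3 or more. Read counts were rebuilt from the steps in both columns, and bracketed intervals are exact (Clopper-Pearson) 95% intervals on those reads, which cover counting error only. Against 1 input read, a cluster needed 24 immunoprecipitate reads to pass both thresholds. Of the markers fixed for the labelled cell type, 9 of 10 progenitor genes had a cluster, and so had 8 of 10 glial and 6 of 10 neuronal ones. An enriched cluster was found on 6 of the progenitor genes, on all 8 of the glial ones, and on the neuronal genes Dcx, Map2 and Mapt. The share over all protein-coding genes with a cluster was 34.9%. Of the clusters on glial markers 86 of 125 were enriched (68.8%), against 44 of 147 on progenitor (29.9%) and 31 of 223 on neuronal markers (13.9%). The share over the clusters of all protein-coding genes was 11.7%. Among glial markers, 21 of 21 clusters were enriched in Gja1, 21 of 21 in Olig1 and 9 of 9 in Gfap. The lowest shares were 1 of 15 in Aldh1l1 and 1 of 7 in S100b. Vim, Pax6, Notch1, Elavl4, Syn1 and Rbfox3 had clusters but no enriched one. The progenitor marker Hes1, the glial markers Aqp4 and Mbp, and the neuron markers Tubb3, Snap25, Stmn2 and Neurod6 had no cluster on their strand.

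UPF1 was enriched on 8 kinesin genes: the transport motors Kif1a, Kif1b, Kif1c, Kif3a, Kif3b and Kif5b, the light chain Klc1, and Kif21b. Clusters lay on 23 of the 42 genes, so the share was 34.8%, against a background of 34.9% for all 9408 protein-coding genes with a cluster (3284 called). A share this close to the background is no result about kinesins as a group. The 23 genes held 382 clusters, of which 44 (11.5%) were enriched, against 11.7% of the clusters of all protein-coding genes. Kif1a and Kif1b held 30 of the 44 (68.2%), and without them 14 of 296 kinesin clusters (4.73%) were enriched. The group value for clusters therefore rests on these 2 genes. With the fold threshold at 2 the same 8 genes were called (background 37.1%), at 4 there were 4 (background 25%), and with the −log10 p threshold at 5 there were 6 (background 26.8%).

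**Figure D1:**
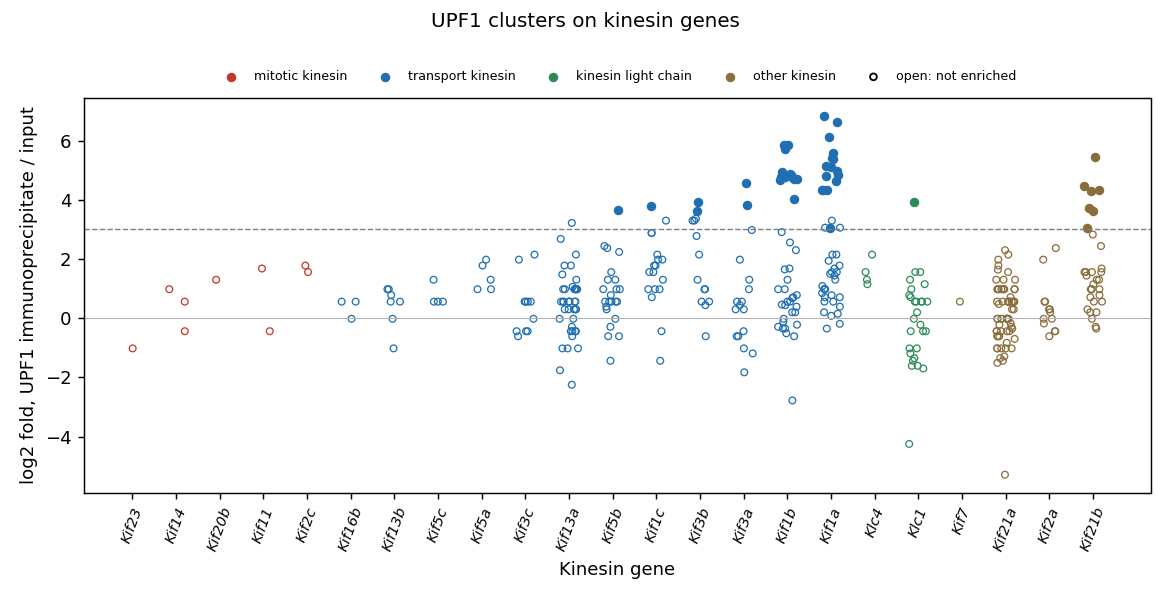
Log2 fold of UPF1 immunoprecipitate over input (vertical axis) for each of the 382 clusters on the 23 kinesin genes that had any (horizontal axis, ordered by class and highest fold, with random sideways spread). Filled points are the 44 enriched clusters and the dashed line is a log2 fold of 3; Kif1a reached 6.83, Kif1b 5.87 and Kif21b 5.44, while the 5 mitotic genes stayed at or below 1.78.

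Mitotic and transport kinesins were set side by side. None of the 5 mitotic kinesins with a cluster was enriched, and 6 of 12 transport motors were (50.0%). Over all protein-coding genes with a cluster the share was 34.9%. The median over genes of the highest log2 fold was 1.30 for the mitotic class, 3.44 for the transport class and 2.56 for all protein-coding genes with a cluster. These are shares and medians over genes, which are not replicates. No interval is therefore given for the shares, and the order of the classes is not resolved. The classes also differed in the reads behind them. Of the 9 mitotic clusters, 6 had rebuilt reads, at most 13 immunoprecipitate reads each and 38 in all, too few to pass the thresholds. The other 3 had a fold below 0, and their reads are unknown. Transport genes had a median of 15.5 clusters, against 2 for mitotic genes, and 42 of their clusters held at least 24 reads or lay at the cap of the p. In the 6 rebuilt mitotic clusters, the few immunoprecipitate reads also enter the fold. They are thus no separate measure of depth, and the part of transcript abundance in the difference between the classes was not tested. As a width-weighted mean over each gene the difference between the class medians shrank from 2.14 to 0.42, without Kif1a and Kif1b the difference in highest folds was 1.39, and with only clusters of at least 20 reads no mitotic gene was left.

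**Figure D2:**
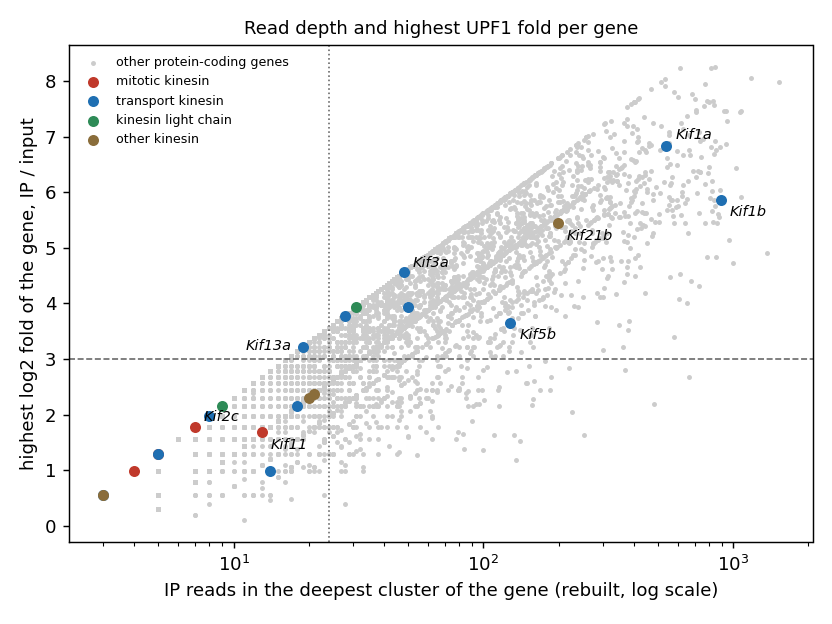
Highest log2 fold of each gene (vertical axis) against the immunoprecipitate reads in its deepest rebuilt cluster (horizontal log axis), for kinesins (coloured by class) and other protein-coding genes (grey). The dotted line marks 24 reads and the dashed line a log2 fold of 3; the mitotic kinesins lie at 13 reads or fewer, and the upper edge of the cloud is the line of 1 input read. Kif23 is not drawn because its cluster gave no rebuilt reads.

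The 5 mitotic kinesins with a cluster were spread over several tasks. Kif2c, a kinesin that takes microtubules apart at the kinetochore, reached 1.78 (interval -1.18 to 7.28) from 7 reads against 1. Kif11, the Eg5 motor that pushes spindle poles apart, reached 1.68 (interval -0.47 to 4.87) from 13 reads against 2, 509 nt from its 3′ end. Kif20b, a kinesin of cytokinesis, had 1 cluster at 1.30 and Kif14, of the midbody, reached 0.98. Kif23, a part of centralspindlin, had 1 cluster with a fold of -1.02, the value that 1 read against 1 gives. Every interval available here spans 0. The other 7 (Kif4, Kif15, Kif18a, Kif18b, Kif20a, Kif22 and Kif2b) had no cluster of their own. Kif20a, a motor of cytokinesis, had no strand set. Its locus held 4 clusters on the minus strand that were assigned to the overlapping Cdc23, and 3 of them were enriched, up to 4.50 (interval 1.95 to 9.83) from 46 reads against 1. Counted as clusters of Kif20a, they would make 1 mitotic kinesin enriched.

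The kinesin-3 motors move synaptic vesicle precursors and other membrane cargo, and Kif1a and Kif1b among them had the highest point values of any kinesin. Intervals of many other kinesins overlap those of both, among them Kif21b, Kif3a, Kif3b, Klc1, Kif1c and Kif5b, so this order is not resolved. Kif1a (chromosome 1, 93015455 to 93102039, minus strand), the axonal motor of synaptic vesicle precursors, had 16 of 45 clusters enriched. Its best cluster, 123 nt wide and 1131 nt from the 3′ end, reached 6.83 on the log2 scale (interval 4.34 to 12.14), with 231 immunoprecipitate reads against 1 of input. The enriched clusters of Kif1a covered 1185 nt between 176 and 2895 nt from the 3′ end, and of the 17 clusters in the last 5000 nt 16 were enriched. Among all genes with a cluster, 63 had more enriched nucleotides and 77 a higher fold.

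The 1 exception in that stretch of Kif1a lay 503 nt from the end, between enriched neighbours. It held 540 immunoprecipitate reads, the most of any rebuilt Kif1a cluster, but also 69 input reads, so its fold was 1.94 (interval 1.58 to 2.33). The cluster touching it on the upstream side held 279 against 4 (5.10) and the one on the downstream side 321 against 19 (3.05). Immunoprecipitate reads were thus high across this stretch, and the input was raised in its middle.

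Kif1b (chromosome 4, 149176319 to 149307773, minus strand), a close relative that carries mitochondria and synaptic vesicle precursors, had 14 of 41 clusters enriched. They lay more tightly than those of Kif1a, between 1095 and 2032 nt from the 3′ end, in 1 lone cluster and 3 runs of touching clusters. One run of 254 nt held 7 clusters with folds of 4.69 to 5.78. Of these, 2 reached the cap of 400 for the −log10 p, the only kinesin clusters to do so. The best fold was 5.87 (interval 4.50 to 7.75) from 476 reads against 4, and the deepest rebuilt cluster held 891 against 17. Touching clusters were as narrow as 9 nt, so a read may have counted in several of them. No cluster of Kif1b lay closer than 1095 nt to the annotated 3′ end. The intervals of Kif1a and Kif1b overlap, so the order of the 2 genes by fold is not resolved.

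The other kinesin-3 motors had lower highest folds, from fewer reads. Kif1c, a widely expressed relative, had 1 of 18 clusters enriched, at 3.78 (interval 1.19 to 9.14) from 28 reads against 1. The upper bound of Kif1c lies above the lower bounds of both relatives, and its call was lost with a −log10 p of at least 5 or without clusters of 1 input read. Kif13a, a motor of endosomes, came next to the threshold: its best cluster reached 3.22 (interval 0.57 to 8.60) from 19 reads against 1, with a −log10 p of 2.16. Of its 42 clusters 37 lay beyond 5000 nt from the 3′ end. Kif13b and the endosomal Kif16b reached 0.98 and 0.56.

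In the kinesin-1 family, the conventional motor, Kif5b differed from its paralogs in depth and call. Kif5b, the ubiquitous heavy chain, had 1 of 23 clusters enriched, at 3.65 (interval 2.39 to 5.30) from 128 reads against 5, and 1364 nt from the 3′ end. A further 2 of its clusters passed the p threshold but not the fold. The neuronal heavy chains Kif5a and Kif5c had 5 and 4 clusters, each within 5000 nt of the 3′ end. Kif5a reached 1.98 (interval -0.92 to 7.45) from 8 reads against 1 and Kif5c 1.30 (interval -1.86 to 6.86) from 5 against 1. Their intervals overlap that of Kif5b, so the 3 heavy chains cannot be ordered.

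Of the light chains, Klc1 had 1 of 28 clusters enriched, at 3.93 (interval 1.34 to 9.28) from 31 reads against 1. That cluster also lay inside the locus of Xrcc3. The cluster in the Klc1 locus that was assigned to Xrcc3 was on the opposite strand. Klc1 was not called from clusters inside 1 locus. Klc4 reached 2.15 (interval -0.71 to 7.60) from 9 reads against 1. Klc3 had no cluster on its strand; 4 enriched clusters in its locus belonged to Ercc2 on the other strand. No strand could be set for Klc2, whose locus held 1 cluster.

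Kinesin-2 motors drive transport in cilia and along axons. Kif3a and Kif3b, which pair with each other, had 2 enriched clusters each. The best of Kif3a was 4.56 (interval 2.01 to 9.89) from 48 reads against 1, and that of Kif3b 3.93 (interval 1.34 to 9.28) from 31 against 1. Kif3b had 3 more clusters with a log2 fold of at least 3 that missed the p threshold. Kif3a was not called without clusters of 1 input read, while Kif3b was. Kif3c, the neuronal partner of Kif3a, had 11 clusters and reached 2.15 (interval 0.08 to 5.30) from 18 reads against 2. Kif17, a motor of dendrites, had no cluster.

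Among the other kinesins, the kinesin-4 paralogs Kif21a and Kif21b were called differently, with overlapping intervals. Kif21b (chromosome 1, 136131390 to 136178001, plus strand), a motor that also restrains microtubule growth, had 7 of 31 clusters enriched, 501 nt in all. They lay 2566 to 3764 nt from the 3′ end, with a best fold of 5.44 (interval 2.92 to 10.76) from 88 reads against 1 and a deepest cluster of 199 against 8. The cluster nearest to the end, at 167 nt, had 2.44 from 22 reads against 2. Kif21a had the most clusters of any kinesin, 66, and none was enriched. Of these, 62 lay beyond 5000 nt, 34 had a fold at or below 0, and the best reached 2.30 (interval 0.26 to 5.44) from 20 reads against 2. Kif21a also held the lowest fold on any kinesin, -5.29, in a 106 nt cluster 44950 nt from the 3′ end. Kif2a, a microtubule depolymerase of neurons and spindles, reached 2.37 (interval 0.34 to 5.51) from 21 reads against 2. Kif7, a regulator of Hedgehog signalling in cilia, had 1 cluster at 0.56. Kif6, Kif9, Kif12, Kif24, Kif26a, Kif26b, Kif27 and Kif28 had no cluster, and the 1 cluster in Kif19a could not be given a strand.

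The enriched clusters of kinesins gathered near the annotated 3′ end, as those of other genes did. All 44 lay within 5000 nt of it (176 to 3764 nt), against 91.8% of the enriched clusters of all protein-coding genes. Within that window 44 of 107 kinesin clusters were enriched (41.1%), against 34.5% of all. Without Kif1a and Kif1b the count was 14 of 74 (18.9%), below the share of all genes. In the last 1000 nt 3 of 22 kinesin clusters were enriched (13.6%, against 36.1% for all genes), and between 1000 and 2000 nt 22 of 33 were (66.7%, against 40.2%). Of those 22, 19 belonged to Kif1a and Kif1b; clusters of a gene are not independent, so the profile is that of a few genes. Beyond 5000 nt 0 of 275 kinesin clusters were enriched, against 1.39% of all. As these clusters are not independent, no limit on the share was drawn from the 0. Of these 275, 101 had a fold at or below 0 and no rebuilt reads, and of the other 174, 1 held at least 24 reads. Distances include introns, and exons were not told from introns.

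**Figure D3:**
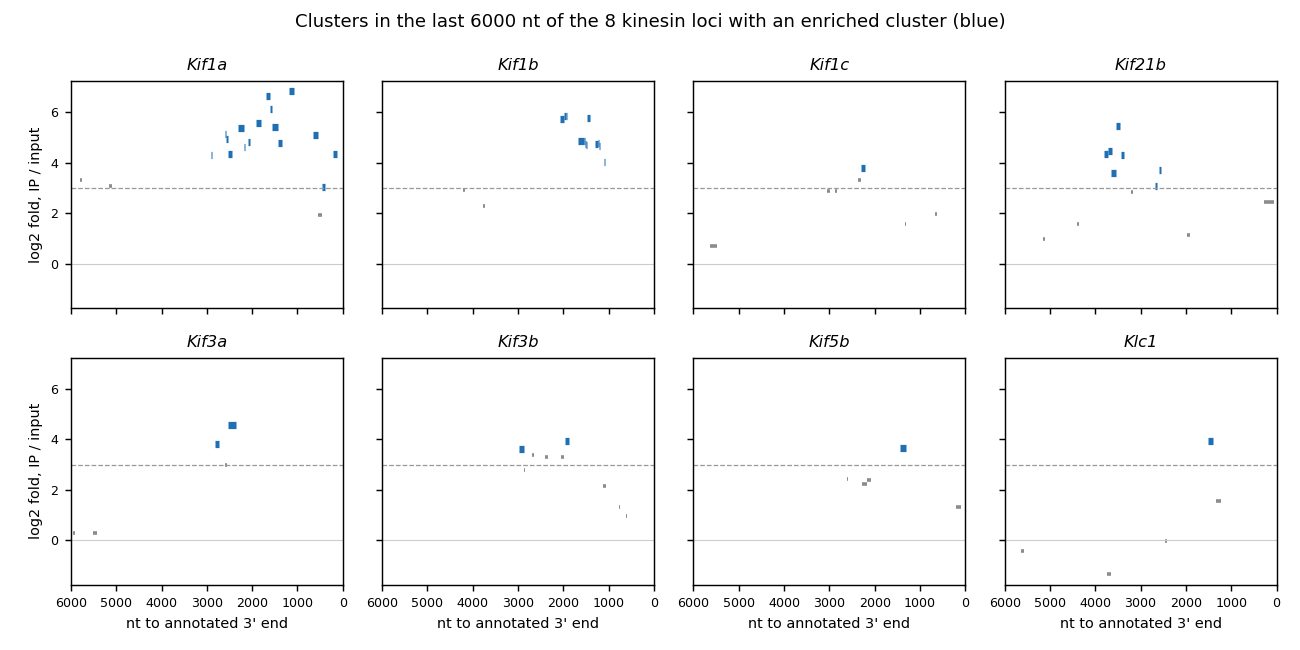
Log2 fold (vertical axis) and distance of clusters from the annotated 3′ end in nt (horizontal axis, 3′ end at the right) for the 8 kinesin genes with an enriched cluster. Each bar spans 1 cluster, blue where enriched; the enriched bars of Kif1a run from 2895 to 176 nt, those of Kif1b from 2032 to 1095 nt and those of Kif21b from 3764 to 2566 nt.

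Depth and call went together along the list. All 8 kinesin genes with a cluster of at least 24 reads had an enriched one, against 83.7% of 3924 such protein-coding genes, and a call requires this depth by construction. Among near clusters of at least 20 reads, 44 of 56 kinesin clusters were enriched (78.6%), close to the 75.7% of all genes; without Kif1a and Kif1b it was 14 of 23 (60.9%). In these cells, fewer transcripts and less binding per transcript both give shallow clusters, and the 2 cannot be told apart for the kinesins without a call.

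Genes that work with the kinesins were counted in the same way, against the background of 34.9% of all genes with a cluster enriched and a median highest fold of 2.56. Of 22 kinesin-like genes with other symbols and cargo adaptors, 19 had a cluster and 10 an enriched one (52.6%, median highest fold 3.47). Mapk8ip3, the JIP3 adaptor of axonal transport, reached 6.27 (interval 3.77 to 11.58) with 13 of 31 clusters enriched, and Map7d1, a microtubule protein that recruits kinesin-1, reached 5.86. Clstn1, calsyntenin-1, a cargo receptor for light chains, reached 5.56, and Arl8a, the lysosomal GTPase that recruits kinesin, 5.42. The mitotic motor Cenpe reached 0.98 from 4 reads against 1. Cytoplasmic dynein, the minus-end motor, was counted with dynactin and their adaptors. Of these 20 genes, 13 of the 19 with a cluster were enriched (68.4%, median 4.30). The highest folds were 6.22 in Dctn4 (interval 3.72 to 11.54) and 6.21 in Dynll2 (interval 3.71 to 11.53). Dync1li2 followed at 4.74 (interval 3.36 to 6.63) and Dync1li1 at 4.70 (interval 2.16 to 10.03). These intervals overlap, so the order is not resolved. Of the 13 clusters of Dctn4, 3 also lay in a second locus. Of 25 mitotic regulators, 3 of the 15 with a cluster were enriched (20%, median 2.15). They were Numa1, a spindle pole protein, at 5.24, Mad2l1 at 3.15, and Prc1. The 1 enriched cluster of Prc1 had a fold of 3.11, and its highest fold, 3.15, missed the p threshold. All 4 clusters of Prc1 also lay in a second locus. The median of the deepest cluster was 9 reads for mitotic regulators and 6 for mitotic kinesins, against 50 for dynein genes, 34 for adaptors and 23.5 for transport kinesins. The lists with low medians of fold were also those with the fewest immunoprecipitate reads. Those reads enter the fold, so reads and fold are not separate measurements here, and the part of transcript abundance was not tested.

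**Figure D4:**
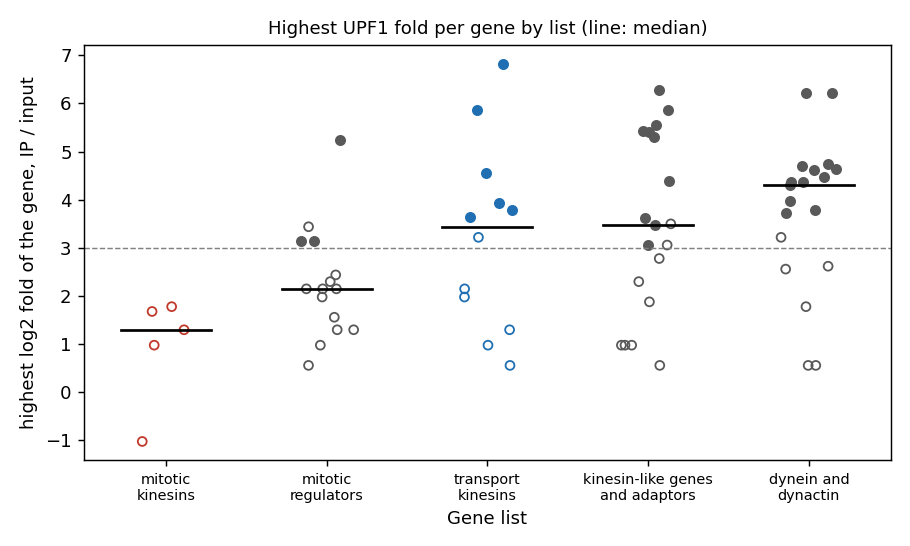
Highest log2 fold of each gene with a cluster (vertical axis) for 5 gene lists (horizontal axis); filled points have an enriched cluster, the short line is the median and the dashed line a log2 fold of 3. The medians are 1.30, 2.15, 3.44, 3.47 and 4.30 from left to right.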

How the data were processed

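The members, gene lists and thresholds were chosen with earlier results of these data known. Reads were processed with UMI-tools, cutadapt and STAR on mm10, per the submitters' processing notes; no source used here names the cluster caller or the formula of the fold. The authors deposited a log2 fold and a −log10 p per cluster (capped at 400) without a header, so both units were read from the values. Of 123349 clusters, 120943 were assigned to a RefSeq GRCm38.p6 locus on their strand. Strands came from the RefSeq promoter table (34 kinesins) or, where it has no entry, from at least 80% of 2 or more clusters in that locus alone (4 kinesins), and 4 kinesins got none. With the commonest fold taken as 3 reads against 1, the smallest whole counts that gave the deposited fold and p (within 0.05 or 1% of the −log10 p) were found for 99.6% of clusters above 0; an input of 1 may also stand for none. Assignment and rebuilding were tested on simulated data. Full values were given for every kinesin with an enriched cluster and for the 6 without one that had the highest folds. Python 3.11.15 and scipy 1.17.1 were used. Fold and p thresholds, overlapping loci, low input, depth, distance and class membership were varied. Library totals are not in the list, so the depth is known per cluster only.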

Additional observations from a re-analysis of the deposited data

Results flagged for a closer look

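Of the kinesin loci whose strand could not be set, Klc2 and Kif19a each held 1 cluster that was assigned to no gene and used in no comparison. A further locus of this kind, Kif20a, held 4 clusters assigned to Cdc23, of which 3 were enriched. The cluster in Klc2 reached 2.88 on the log2 scale (interval 0.18 to 8.28), with 15 immunoprecipitate reads against 1 of input. The cluster in Kif19a reached 1.30 (interval -1.86 to 6.86) from 5 reads against 1. Neither the Klc2 nor the Kif19a cluster passed the thresholds for an enriched cluster.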

How the results depend on the processing

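Of 70 values under alternative settings 65 stayed within the range allowed. For medians this range is the wide counting interval of the middle clusters, and for the class difference it ran from -6.29 to 10.46. For gene counts, 6 kinesin genes in place of 8 and 4 transport motors in place of 6 still counted as within it. A limit of 20 reads could remove no call, as a call needs at least 24. The 65 is thus no measure of stability. Mitotic kinesins had 0 enriched genes except where the clusters shared by the loci of Kif20a and Cdc23 were counted for Kif20a, which gave 1. The low reads of the rebuilt mitotic clusters fix the 0 elsewhere, which is no sign of stability. With a fold threshold of 4, 4 kinesin genes were called, 3 of them transport motors (Kif1c, Kif3b, Kif5b and Klc1 were lost); without clusters of 1 input read 5 were called (Kif1c, Kif3a and Klc1 were lost). Within 2000 nt of the 3′ end lay 56.8% of the enriched kinesin clusters. The difference in median highest fold, transport minus mitotic, ranged from 0.42 to 2.25. Leaving out Kif1a and Kif1b, counting clusters in loci with no strand, and counting clusters for Kif20a were chosen after seeing the data. No paired analysis was possible because there was 1 library of each kind. Mitotic medians could not be had from clusters of at least 20 reads.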
